A study of Mus musculus with 12 samples.

Results

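The collagen chains of mouse mammary fibroblasts were followed one by one. The chains were the 42 genes whose symbols in the deposited gene list consist of Col, a number, the letter a and a number, without the basement membrane chains Col4a1 and Col4a2, out of 27998 genes in all. Single cells of the mammary gland were measured in 12 libraries, 1 for each group of C57BL/6J mice aged 43 weeks. The Intact group kept its ovarian function, and mice of every other group had been given 4-vinylcyclohexene diepoxide (VCD, 160 mg/kg/day for 15 days), a compound that depletes ovarian follicles and so models menopause. After VCD the mice received vehicle, 17β-estradiol (E2, 1 µg per animal per day for 1 week), E2 with progesterone (E2 + P4, with P4 at 1 mg per animal per day for 1 week) or E2 with ICI (E2 + ICI, a single 5 mg dose of an estrogen receptor antagonist). Vehicle, E2 and E2 + P4 were each given at 3 levels of polybrominated diphenyl ethers (PBDEs, flame retardants with endocrine activity), here called diets. These were a control diet without PBDE, a low-dose diet (the main congener at 0.05 mg/kg/day for 20 weeks) and a high-dose diet (1 mg/kg/day for 1 week). The PBDE dose and its duration therefore cannot be told apart. The vehicle group VCD_Vehicle_NormEnv stood outside this scheme, and its labels do not say what sets it apart. Its PBDE exposure was coded here as not controlled, with no dose or duration known. How many mice went into a library is not given in the sources used here. The 9 libraries of the 3 hormone states and 3 diets entered the tests of hormone and diet, and all 12 those between cell gates. The diets served as the replicates of a hormone state, so p-values measure the spread between these libraries.

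Collagens are built from 3 chains wound into a triple helix, and each chain is the product of its own gene. Fibrillar chains such as Col1a1, Col1a2 and Col3a1 assemble into the fibers that carry tension, with Col5a1 and Col5a2 at their core setting fiber width. FACIT chains such as Col12a1 and Col14a1 bind to the surface of fibers, type VI chains form beaded filaments around cells, and network chains form sheets, among them the type IV chains of basement membranes. Transmembrane chains stay anchored in the cell surface, and the multiplexins Col15a1 and Col18a1 lie near basement membranes. In the mammary gland the stroma around ducts is rich in fibrillar collagen, and fibroblasts are its main source.

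Fibroblasts were taken as cells with no UMI (a counted molecule) of Ptprc, Cd52, Pecam1, Cspg4, Krt14 or Epcam and with at least 4 of 6 general fibroblast markers. Cells with at least 3 markers of an endothelial, epithelial, pericyte and smooth muscle, Schwann cell or skeletal muscle list were dropped. This left 31085 cells, and 25970 of them fell into 1 of 4 gates set by 6 marker genes each, none of them a collagen. The Dpp4+ gate (Dpp4, Pi16, Anxa3, Sema3c, Cd55, Ackr3) held 11653 cells, the Fabp4+ gate (Fabp4, Lpl, Cxcl14, Smoc2, Pparg, Cd36) 6469, the Tnc+ gate (Tnc, Mfap4, Penk, Scg3, Enpp2, Mdk) 4047 and the Gdf10+ gate (Gdf10, F3, Gas6, Fmo2, Inmt, Clec11a) 3801. Each gate had at least 158 cells in every library, and 10.2% of the fibroblasts lay within 0.1 of the gate margin. Libraries held 41737881 to 109224969 UMIs. Levels are given as CPM, the UMIs of a gene over all UMIs of that gate and library on the usual scale. Since UMIs came from the 3′ ends of transcripts and are not scaled by gene length, each chain was compared with itself across libraries and gates and not with other chains.

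Depth and markers moved with hormone and are given here once. In the Tnc+ gate the median UMIs per cell were 8425 to 10970 in the 3 libraries without hormone and 16720 to 27890 in the 6 with E2 or E2 + P4, ranges that did not overlap, whereas in the Gdf10+ gate they were 11220 to 14120 and 8847 to 17160. Of the markers that set the Tnc+ gate, Mfap4 was higher under E2 (log2 fold change 1.5), Penk (-1.71), Enpp2 (-1.45), Scg3 (-0.87) and Tnc (-0.50) were lower, and Mdk did not pass the test. The summed general fibroblast markers of this gate were at 55700 to 63900 CPM without hormone and 23200 to 36900 CPM with it, ranges that did not overlap either. Nor did they in the Fabp4+ gate (69900 to 81400 and 37800 to 57500 CPM) or the Gdf10+ gate (59800 to 68700 and 41300 to 51700 CPM), while they did in the Dpp4+ gate (29900 to 34400 and 23400 to 32200 CPM). Gsn and Dcn were the highest of the summed genes in every gate, with Gsn at 3846 to 33370 CPM over the Tnc+ libraries. The genes did not move together: in the Tnc+ gate Dcn was lower under E2 (log2 fold change -0.87). Lum (0.93) and Mmp2 (0.38) were higher there, and Pdgfra (0.012) did not pass. Summed over their lists in the Tnc+ gate, tendon and cartilage markers were at 3.98 to 6.68 CPM without hormone and 2.58 to 12.2 CPM with it, pericyte and smooth muscle markers at 10.5 to 14.6 and 11.8 to 44.1 CPM, and adipocyte markers at 0 to 0.542 and 0.246 to 2.7 CPM. Immune markers were at 25.7 to 31.4 and 20.1 to 62.2 CPM, Schwann cell markers at 28.6 to 33.6 and 25.1 to 30.2 CPM, and skeletal muscle markers at 3.49 to 5.06 and 2.7 to 21.2 CPM. Endothelial markers were at 6.5 to 8.3 and 3.96 to 6.87 CPM and epithelial markers at 1.31 to 2.89 and 0.491 to 8.11 CPM. In the Tnc+ gate the ranges of each list of another cell type thus overlapped between the states. The selection of cells used genes of all these lists but the adipocyte and the tendon and cartilage lists. Low sums of the lists used were in part set in advance and are no check on other cell types. The part of depth, of gate composition and of these markers in the results below was not tested. Cells of different libraries shared 740 barcodes, up to 185 for a pair of libraries, and every count of called chains stayed within 1.5 times its value without the 381 gated cells that carried them.

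Of the 42 chains, 31 had enough UMIs to be tested in at least 1 gate and 21 in all 4. The other 11 were Col2a1, Col11a2 and Col24a1 (fibrillar), Col9a1, Col9a2, Col19a1 and Col22a1 (FACIT), Col6a4 (type VI), Col4a6 and Col10a1 (network) and Col17a1 (transmembrane), with 2 to 216 UMIs each over all gated cells. The cartilage chain Col2a1, for example, had 12 UMIs, and Col10a1, the chain of hypertrophic cartilage, had 4. Free RNA was gauged in 5338 immune cells (a UMI of Ptprc, at least 3 of 7 immune markers and no UMI of Pdgfra), where collagen took 0.033% to 0.282% of UMIs, with VCD_Low_E2_P4 highest. There Col3a1 was at 109.6 to 1121 CPM with a median of 202 and had a UMI in 76.8% of cells, against 98.9% of Tnc+ cells. For Col9a3 (0 to 1.27 CPM with a median of 0.525) and Col20a1 (0 to 1.16 CPM with a median of 0.377) the immune cells reached the levels of the fibroblast gates, so the values of these 2 chains below are not separated from background. The map of all tested chains shows these levels by library.

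**Figure D1:**
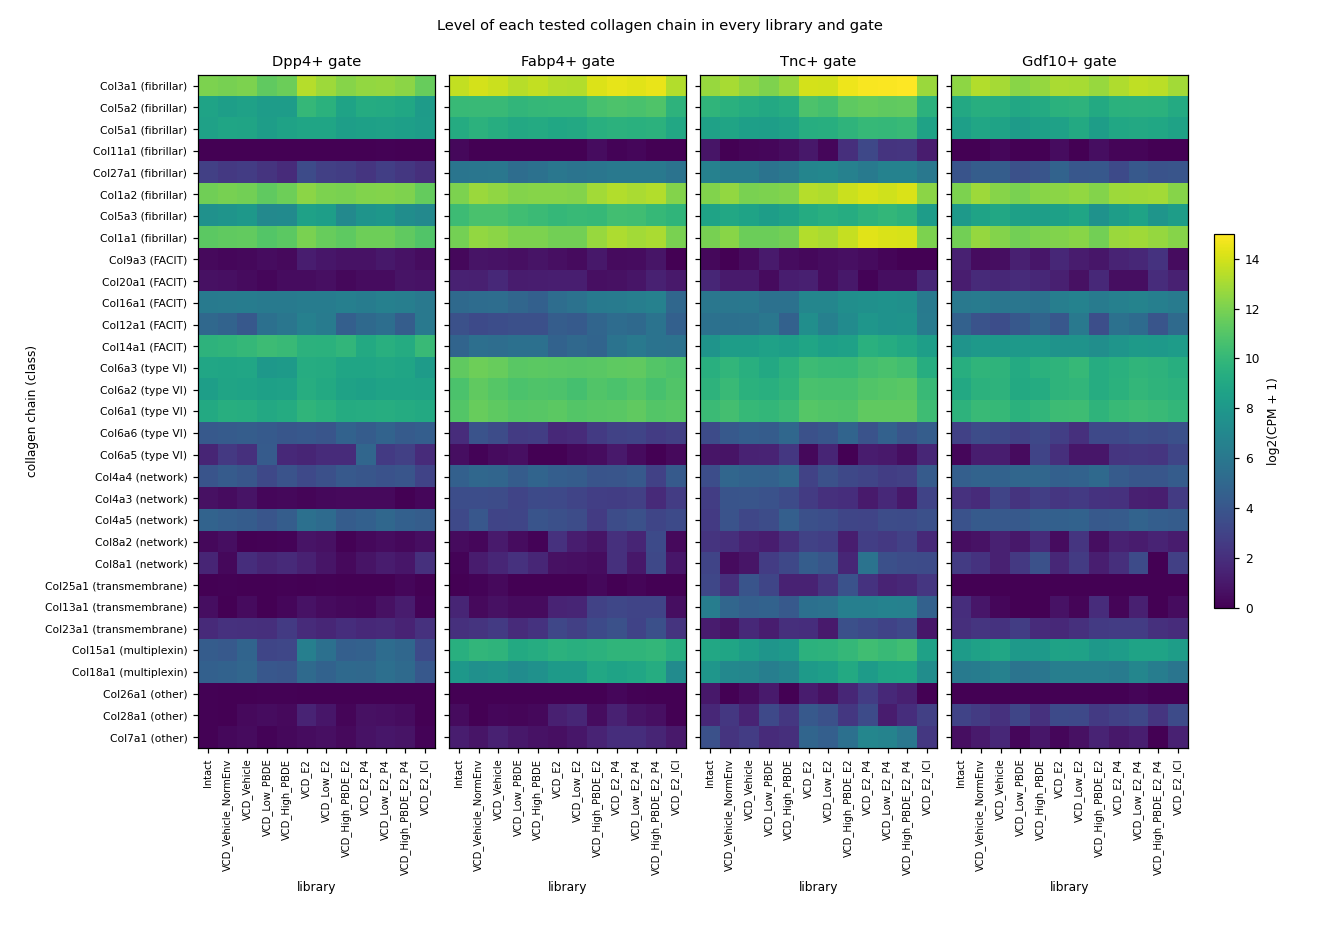
Level of the 31 tested chains (rows, grouped by class) in each of the 12 libraries (columns) of each gate, as log2(CPM + 1). Col3a1, Col1a2 and Col1a1 brighten in the E2 and E2 + P4 columns of the Tnc+ gate, and Col13a1 is brighter there than in the other gates.

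Levels of the chains differed between gates. Against the mean of the other 3 gates, with the library as a block over all 12 libraries, 28 chains could be tested. In the Tnc+ gate 21 were higher and 2 lower, where 30.3% and 30.2% of all genes tested were higher and lower. The 2 lower became 1 without Intact, VCD_E2, VCD_E2_P4, VCD_Low_E2, VCD_Low_E2_P4 or VCD_High_PBDE_E2. In the Fabp4+ gate 13 were higher and 8 lower (29% and 31.1% of all genes), in the Gdf10+ gate 7 and 13 (25.4% and 24.1%), and in the Dpp4+ gate 4 and 21 (36.4% and 36.2%). Col20a1, not separated from background, is among those higher in Fabp4+ and Gdf10+ and lower in Dpp4+ cells. Its calls carry no weight. The median log2 difference of the 28 chains was 0.79 in the Tnc+ gate and -1.31 in the Dpp4+ gate, with 0.0012 and -0.0057 over all genes. This comparison averages over the hormone states. Col1a1 was higher in the Tnc+ gate over the 12 libraries (0.82). In the 3 tested libraries without hormone it was at 3146, 3153 and 3545 CPM in Tnc+ and 5378, 4205 and 4167 CPM in Fabp4+ cells. It was then at 4711, 3541 and 4248 CPM in Gdf10+ and 2644, 2009 and 2338 CPM in Dpp4+ cells. On each diet Tnc+ cells were thus below Fabp4+ and Gdf10+ cells and above Dpp4+ cells. Col3a1 was then at 5813, 4417 and 6541 CPM in Tnc+ and 14282, 10561 and 12827 CPM in Fabp4+ cells, and Col1a2 at 3973, 4203 and 4519 and 5897, 4809 and 5004 CPM.

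The transmembrane chains Col13a1, found at cell adhesions, and Col25a1, known from neurons and muscle innervation, had their highest levels in the Tnc+ gate. Col13a1 ranged over 17.4 to 98.7 CPM with a median of 47 there and over 0.302 to 8.32 CPM with a median of 1.87 in the Fabp4+, 0 to 1.23 CPM with a median of 0.312 in the Dpp4+ and 0 to 2.91 CPM with a median of 0.309 in the Gdf10+ gate, so no Tnc+ library overlapped any other (log2 fold change 5.84, SE 0.17, adjusted p = 4.98e-27). Col25a1 was at 1.72 to 13.9 CPM with a median of 3.77 in the Tnc+ gate and had no UMI in any Gdf10+ library. It reached the filter on low counts in Tnc+ libraries and in no other gate, so it had to be higher there. Col13a1 reached the filter in 12 Tnc+, 7 Fabp4+, 3 Gdf10+ and 0 Dpp4+ libraries. In the same order Col7a1 did so in 12, 5, 3 and 0 and Col8a2 in 10, 4, 5 and 0. These chains passed the filter only with their Tnc+ libraries. Their calls as higher there, and that of Col25a1, carry no weight, and the rest of the 21 higher chains are those to read. The call of Col25a1 as lower in the Gdf10+ gate, among the 13 there, was fixed in the same way and carries no weight. The calls of Col13a1 and Col7a1 as lower in the Dpp4+ and Gdf10+ gates rest on the same filter, as does that of Col8a2 in the Dpp4+ gate. Col7a1, which forms the anchoring fibrils under epithelia, was at 2.53 to 116 CPM with a median of 16.9 in the Tnc+ gate against 0.509 to 2.96 CPM with a median of 1.2 in the Fabp4+ gate, ranges that overlapped (log2 fold change 5.00, SE 0.23, adjusted p = 9.12e-21). This value averages over the hormone states. Without hormone Col7a1 was at 5.31, 2.53 and 3.05 CPM in Tnc+ and 1.62, 0.949 and 0.634 CPM in Fabp4+ cells on the control, low-dose and high-dose diets. The fibrillar chain Col27a1 was at 50.6 to 122 CPM with a median of 87.7 in Tnc+ and 39.3 to 66.9 CPM with a median of 59.1 in Fabp4+ cells, which overlapped, at 9.33 to 26.8 CPM with a median of 15.1 in Gdf10+ and at 2.59 to 9.68 CPM with a median of 4.98 in Dpp4+ cells, the gate in which a fibrillar chain had its smallest p (log2 fold change -3.06, SE 0.09, adjusted p = 8.67e-28).

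In Dpp4+ cells Col14a1, the FACIT chain that decorates fibers, was higher than in the mean of the other gates and the multiplexins were lower. Col14a1 was at 549 to 1262 CPM with a median of 853 in the Dpp4+ gate (log2 fold change 2.50, SE 0.10, adjusted p = 2.27e-23), 219 to 736 CPM with a median of 365 in Tnc+ cells, where it was higher too (0.88) and the range overlapped that of the Dpp4+ gate, 172 to 309.9 CPM with a median of 260.1 in Gdf10+ and 25.7 to 66.2 CPM with a median of 44.8 in Fabp4+ cells, where it had the smallest p of the FACIT chains (log2 fold change -3.45, SE 0.14, adjusted p = 1.02e-22). The type VI chains Col6a5 (2.47) and Col6a6 (1.04) and the basement membrane chain Col4a5 (1.01) were the other chains higher in the Dpp4+ gate. Col6a5 reached the filter on low counts in 12 Dpp4+, 6 Gdf10+, 5 Tnc+ and 0 Fabp4+ libraries and passed it only with the Dpp4+ ones. Its call as higher there thus carries no weight, and its call as lower in Fabp4+ cells rests on the same filter. Lower in the Dpp4+ gate were Col15a1 (7.64 to 88.9 CPM with a median of 23.1, log2 fold change -4.52, SE 0.23, adjusted p = 3.14e-20), Col18a1 (14.5 to 43.5 CPM with a median of 27.8, log2 fold change -2.69, SE 0.12, adjusted p = 2.44e-21) and Col4a3, a chain of the basement membranes of kidney, lung and inner ear (0 to 0.764 CPM with a median of 0.265, log2 fold change -4.13, SE 0.24, adjusted p = 4.45e-18). Col4a3 was above 1 CPM in 11 of 12 Tnc+ libraries and in no Dpp4+ library.

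The filament-forming type VI chains and the multiplexins were higher in Fabp4+ cells than in the mean of the other gates. Col6a3, the long chain of the type VI monomer, was at 1763 to 3281 CPM with a median of 2338 there and at 526 to 1636 CPM with a median of 1005 in the Tnc+ gate, with no overlap between them (log2 fold change 1.80, SE 0.082, adjusted p = 5.98e-21). Its partners Col6a1 (1.14) and Col6a2 (1.34) were higher too, while Col6a5 and Col6a6 were lower (-3.02 and -1.28). The minor fibrillar chain Col5a3 (1.88), Col15a1 (2.18) and Col18a1 (1.84) were also higher in the Fabp4+ gate. Of these, Col15a1 (1.67), Col18a1 (1.40), Col6a1 (0.46) and Col6a2 (0.57) were higher in the Tnc+ gate too, where Col15a1 was at 223 to 1333 CPM with a median of 647 against 563 to 976 CPM with a median of 803 in Fabp4+ cells, and Col6a3 was not (-0.015). In the Gdf10+ gate Col28a1, a chain known from nerve sheaths, was higher (3.35 to 9.85 CPM with a median of 6.77, log2 fold change 2.62, SE 0.25, adjusted p = 2.25e-11), and so it was in the Tnc+ gate (1.22 to 17 CPM with a median of 4.46, log2 fold change 2.11, SE 0.25, adjusted p = 2.02e-09). The summed Schwann cell markers were at 48.4 to 83.2 CPM in the Gdf10+ gate and 25.1 to 33.6 CPM in the Tnc+ gate over the 9 libraries, and their part in the Col28a1 value was not tested.

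**Figure D2:**
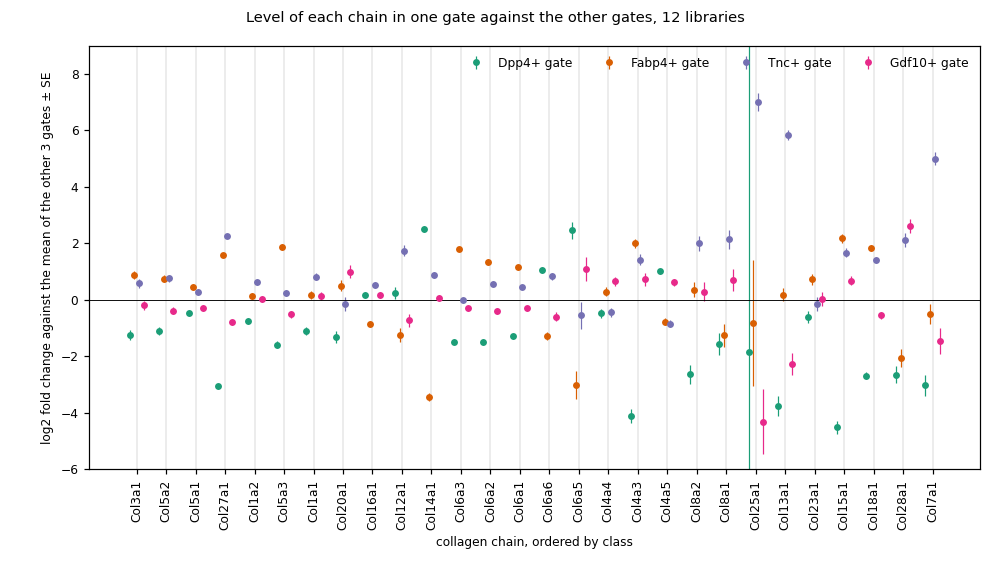
Difference of each chain in one gate from the mean of the other 3 gates (y axis, log2, points with SE, the axis being limited so that the SE of Col25a1 in the Dpp4+ gate runs past it) for the 28 chains tested over 12 libraries (x axis, ordered by class). Tnc+ points lie above 0 for 22 chains and Dpp4+ points below 0 for 22, and Col14a1 stands apart with its Dpp4+ point high and its Fabp4+ point low.

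E2 raised most of the collagen chains tested in the Tnc+ gate. With E2 and E2 + P4 averaged against no hormone and the diet as a term, 19 of 28 tested chains were higher in the Tnc+ gate, where 17% of all genes tested were, and 2 were lower, where 15.2% were. Of the 19, Col11a1 was below the filter on low counts in all 3 libraries without hormone and so passed it through libraries with hormone, which leaves 18. For 15 chains all 6 libraries with E2 stood above the 3 without hormone, as for 17.2% of all genes, and for 2 they stood below, as for 9.61%. The counts were 6 higher and 2 lower of 25 in the Dpp4+ gate (5.95% and 5.39% of all genes), 7 and 1 of 26 in the Fabp4+ gate (6.83% and 5.28%) and 1 and 0 of 24 in the Gdf10+ gate (2.01% and 1.02%). In the same way 1 of the 6 higher in Dpp4+ cells (Col9a3) and 2 of the 7 in Fabp4+ cells (Col13a1 and Col28a1) passed the filter through libraries with hormone. The median log2 fold change of the tested chains was 1.47 in the Tnc+, 0.42 in the Dpp4+, 0.29 in the Fabp4+ and 0.34 in the Gdf10+ gate, and within 0.01 of 0 over all genes in each. The chains summed made up 1.61% to 1.99% of the UMIs of Tnc+ cells in the 3 tested libraries without hormone, 4.38% to 6.36% under E2 and 7.85% to 8.44% under E2 + P4. VCD_Vehicle_NormEnv, also without hormone but outside the tests, was at 2.6%.

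**Figure D3:**
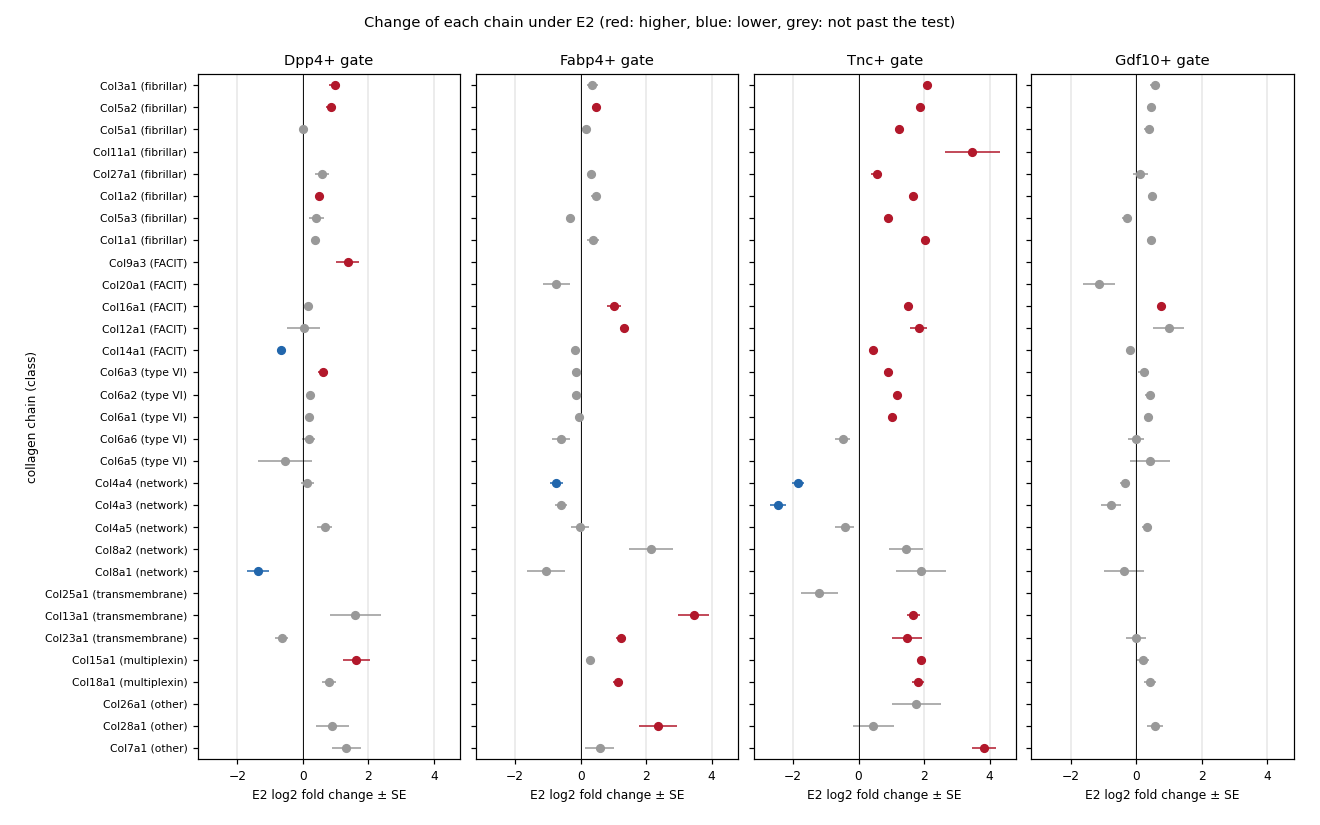
Log2 fold change under E2 with its SE (x axis) for each chain tested (rows, by class) in each gate. Red points passed the test as higher, blue as lower and grey did not pass. The Tnc+ panel holds 19 red and 2 blue points, the Gdf10+ panel 1 red point.

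Fibrillar chains rose in the Tnc+ gate, all 8 that were tested, of which Col11a1 entered the test through its hormone libraries. CPM values are given for vehicle, E2 and E2 + P4, each in the order control, low-dose and high-dose diet. Col3a1, the type III chain of pliable fibers, was at 5813, 4417 and 6541 CPM without hormone, at 16759, 15798 and 25460.0 CPM under E2 and at 30103, 30793 and 34449.9 CPM under E2 + P4 (log2 fold change 2.10, SE 0.11, adjusted p = 4.55e-06). Every E2 library was thus above every library without hormone, and every E2 + P4 library above every E2 library. Col1a1, the main type I chain, was at 3146, 3153 and 3545 CPM without hormone, at 9744, 8895 and 12994 CPM under E2 and at 20466, 18367 and 17796 CPM under E2 + P4 (log2 fold change 2.04, SE 0.12, adjusted p = 5.11e-06). Its partner in the type I helix moved with it: Col1a2 was at 3973, 4203 and 4519 CPM without hormone, at 10480.2, 9483 and 14092 CPM under E2 and at 17499, 15535 and 18167 CPM under E2 + P4 (log2 fold change 1.65, SE 0.11, adjusted p = 7.28e-06). Per cell, Col3a1 UMIs went from 56.8, 50.2 and 73.2 without hormone to 320.2, 288 and 481 under E2.

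The type V chains, which nucleate type I fibers, followed. Col5a2 was at 628, 522 and 617 CPM without hormone, at 1794, 1556 and 2469 CPM under E2 and at 2770.2, 2538 and 2711 CPM under E2 + P4 (log2 fold change 1.89, SE 0.12, adjusted p = 6.31e-06). Col5a1 was at 355, 334 and 386 CPM without hormone, at 661, 679 and 874 CPM under E2 and at 1063, 1020.4 and 1107 CPM under E2 + P4 (log2 fold change 1.25, SE 0.094, adjusted p = 1.58e-05). Neither chain overlapped between the 3 libraries without hormone and the 6 with E2. Col5a3 did not overlap either, while Col27a1 did. The fibrillar chains also called were Col5a3 (log2 fold change 0.90, SE 0.11, adjusted p = 0.000298), Col27a1 (log2 fold change 0.55, SE 0.17, adjusted p = 0.0332) and the cartilage-type chain Col11a1 (log2 fold change 3.47, SE 0.83, adjusted p = 0.0103). Col11a1 had 1 UMI in each of the 3 libraries without hormone, so its call and fold carry no weight. It was at 0.166, 0.181 and 0.436 CPM without hormone, 0.983, 0.193 and 3.14 CPM under E2 and 8.46, 3.81 and 3.93 CPM under E2 + P4, and its groups overlapped.

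Some of these chains are neighbours in the genome (GENCODE M21, GRCm38). Col3a1 (chr1:45311538-45349706, plus strand) and Col5a2 (chr1:45374321-45503282, minus strand) lie tail to tail with 24.6 kb between them, and Col6a2 and Col6a1 lie on chromosome 10 on the same strand with 85.2 kb between them. Col1a1 is on chromosome 11 and Col1a2 on chromosome 6. Since Col5a1 was the gene most like Col3a1 over the Tnc+ libraries, the 200 bases before their start sites are shown, from RefSeq on GRCm38.p6, 5′ to 3′ on the gene's strand, for chr1:45311338-45311537 and chr2:27886225-27886424, both on the plus strand. The capitals mark a TATAAA match in Col3a1 and a GGGCGG match in Col5a1.
Col3a1: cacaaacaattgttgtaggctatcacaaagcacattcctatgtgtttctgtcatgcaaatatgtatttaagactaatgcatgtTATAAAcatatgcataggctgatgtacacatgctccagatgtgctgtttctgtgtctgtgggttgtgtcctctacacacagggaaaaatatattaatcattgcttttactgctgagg
Col5a1: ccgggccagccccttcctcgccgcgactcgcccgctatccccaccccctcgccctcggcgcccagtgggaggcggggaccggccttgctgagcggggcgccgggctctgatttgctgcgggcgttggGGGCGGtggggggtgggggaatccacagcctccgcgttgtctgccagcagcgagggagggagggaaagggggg
Over the 250 bases before each start site, read on both strands, TATAAA occurred in 12.4% of 32851 start-site windows of the reference and in 5 of 36 windows of 33 chains, and GGGCGG in 32.7% and in 21 of 36. The full estrogen response element GGTCANNNTGACC, which contains the half-site GGTCA in both orientations, was in 0.064% of all windows and in 0 of the 36, and the half-site alone in 35.2% and in 14 of 36. The remaining 9 chains, Col1a1, Col5a2 and Col4a3 among them, were not in that table.

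All 3 FACIT chains tested in the Tnc+ gate rose. Col12a1, which links fibers under tension, was at 48.3, 61.2 and 24 CPM without hormone, at 166, 90.0 and 148 CPM under E2 and at 230.5, 198 and 212 CPM under E2 + P4 (log2 fold change 1.83, SE 0.26, adjusted p = 0.000671). Col16a1 was at 62.9, 48.2 and 47.5 CPM without hormone, at 118, 119 and 168 CPM under E2 and at 185, 201 and 182 CPM under E2 + P4 (log2 fold change 1.52, SE 0.15, adjusted p = 6.86e-05), and the groups did not overlap for either chain. Col14a1 changed least of the 3 (log2 fold change 0.43, SE 0.13, adjusted p = 0.0244): it was at 325, 391 and 334 CPM without hormone and at 454, 349 and 381 CPM under E2, ranges that overlap, and at 736, 622 and 515 CPM under E2 + P4.

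Of the 4 type VI chains tested in the Tnc+ gate, the 3 that form the common monomer rose. Col6a2 was at 775, 699.9 and 898 CPM without hormone, at 1677, 1574 and 1615 CPM under E2 and at 1972, 2081 and 2308 CPM under E2 + P4 (log2 fold change 1.18, SE 0.10, adjusted p = 2.92e-05). Col6a1 was at 1077, 964 and 1206 CPM without hormone, at 2154, 1982 and 1835 CPM under E2 and at 2624, 2578 and 2624 CPM under E2 + P4 (log2 fold change 1.02, SE 0.10, adjusted p = 7.79e-05). Col6a3 was at 707, 526 and 805 CPM without hormone, at 1239.8, 1165 and 1086 CPM under E2 and at 1449.9, 1636 and 1392 CPM under E2 + P4 (log2 fold change 0.91, SE 0.14, adjusted p = 0.000787). In all 3 chains each of the 6 E2 libraries was above each library without hormone, with smaller folds than the fibrillar chains of types I and III. Col6a6, an alternative long chain, did not pass the test (log2 fold change -0.48, SE 0.22, adjusted p = 0.126).

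Both multiplexins rose in the Tnc+ gate. Col15a1, a bridge between basement membrane and fibers, was at 328, 223 and 266 CPM without hormone, at 781, 816 and 1007 CPM under E2 and at 1330.5, 1156 and 1333 CPM under E2 + P4 (log2 fold change 1.90, SE 0.12, adjusted p = 7.28e-06). Col18a1, the source of endostatin, was at 119, 84.4 and 109 CPM without hormone, at 282, 336 and 558 CPM under E2 and at 300.4, 438 and 449 CPM under E2 + P4 (log2 fold change 1.81, SE 0.19, adjusted p = 9.94e-05). Neither overlapped between the states. Among the transmembrane chains, Col13a1 was at 21.9, 25.3 and 17.4 CPM without hormone, at 45, 49 and 89.7 CPM under E2 and at 86.2, 98.7 and 96.9 CPM under E2 + P4 (log2 fold change 1.68, SE 0.20, adjusted p = 0.000244), without overlap. Col23a1 was also called (log2 fold change 1.49, SE 0.46, adjusted p = 0.032) but overlapped, with 2.32, 1.26 and 3.05 CPM without hormone and 2.95, 1.16 and 11.4 CPM under E2, and Col25a1 did not pass (log2 fold change -1.19, SE 0.57, adjusted p = 0.138). Col7a1, the anchoring fibril chain, was at 5.31, 2.53 and 3.05 CPM without hormone, at 29, 21.8 and 45.4 CPM under E2 and at 116, 105 and 59.9 CPM under E2 + P4 (log2 fold change 3.83, SE 0.37, adjusted p = 6.69e-05), so its lowest E2 library stood above the highest without hormone. Col26a1 and Col28a1 did not pass (adjusted p = 0.101 and 0.626).

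The 2 chains that fell under E2 in the Tnc+ gate were the type IV chains Col4a3 and Col4a4, which wind into a common helix of specialised basement membranes. Col4a3 was at 14.8, 12.8 and 9.59 CPM without hormone, at 5.16, 3.28 and 2.95 CPM under E2 and at 1.1, 2.29 and 0.981 CPM under E2 + P4 (log2 fold change -2.46, SE 0.24, adjusted p = 7e-05). Col4a4 was at 25.1, 23.8 and 32.7 CPM without hormone, at 6.88, 12.2 and 8.49 CPM under E2 and at 7.48, 5.64 and 6.13 CPM under E2 + P4 (log2 fold change -1.84, SE 0.19, adjusted p = 8.76e-05). For both, each of the 6 E2 libraries was below each library without hormone. The counts behind them were small: Col4a3 had a UMI in 7.68% and Col4a4 in 15.2% of Tnc+ cells, against 0.0749% and 0.787% of immune cells. Of the other network chains tested, Col4a5, Col8a1 and Col8a2 did not pass (log2 fold changes -0.42, 1.91 and 1.45, adjusted p = 0.278, 0.0842 and 0.0516). Without VCD_High_PBDE_E2, 4 chains were lower in this gate instead of 2.

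The genes of the falling pair lie head to head on chromosome 1, Col4a4 (chr1:82448423-82586849) on the minus and Col4a3 (chr1:82586921-82722059) on the plus strand. The 71 bases between their annotated starts, chr1:82586850-82586920 on GRCm38, are shown because a single stretch flanks both genes, 5′ to 3′ on the strand of Col4a4. They hold no match to the short motifs named above on either strand, so no letter is capitalised.
Col4a4-Col4a3: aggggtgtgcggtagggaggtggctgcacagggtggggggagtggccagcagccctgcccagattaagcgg

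**Figure D4:**
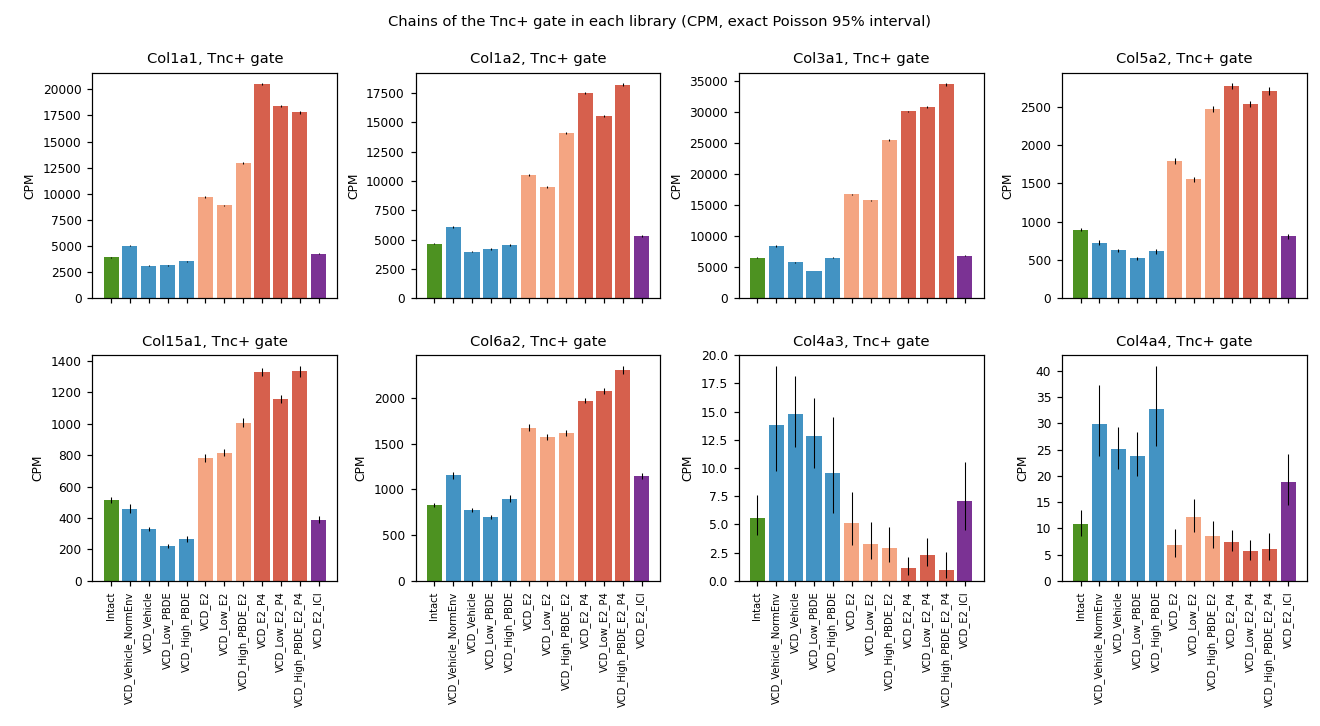
CPM (y axis, linear, from 0) of 8 chains in the Tnc+ gate of each of the 12 libraries (bars, with exact Poisson 95% intervals that cover counting error only). Green is Intact, blue libraries have no hormone, light red is E2, dark red is E2 + P4 and purple is E2 + ICI. For Col4a3 and Col4a4 the red bars lie below the blue bars of VCD_Vehicle, VCD_Low_PBDE and VCD_High_PBDE, and for Col3a1 and Col1a1 they lie above them.

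The changes can be split by diet, as a description: the chains were called from these same libraries, so the direction within a diet is no further support. For Col3a1 the log2 ratio was 2.01, 2.40 and 2.19 on the control, low-dose and high-dose diets, for Col1a1 2.26, 2.11 and 2.12, and for Col4a4 -1.67, -1.33 and -2.02. Library codes in the file names split the series in the same way in part, with all control-diet libraries carrying one code and all high-dose libraries the other, so the control-diet and high-dose ratios are also the within-code values. Low-dose libraries carried both codes, so the low-dose ratios are not within-code values. A term for the code gave nearly the values found without VCD_Low_PBDE (Col4a4 in Fabp4+ cells -1.053 in both), so these 2 alternatives are not separate checks.

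In the Dpp4+ gate a smaller set of chains was called, and Col14a1 and Col8a1 fell while 6 chains rose. Col14a1 was at 997, 1262 and 1150.1 CPM without hormone, at 800.2, 758 and 944 CPM under E2 and at 549, 714 and 607 CPM under E2 + P4 (log2 fold change -0.67, SE 0.10, adjusted p = 0.00801), so this chain fell, and every library with E2 or E2 + P4 lay below every library without hormone. Col8a1, a short network chain, was at 2.83, 1.92 and 2.41 CPM without hormone, at 1.6, 0.812 and 0.323 CPM under E2 and at 0.73, 1.17 and 0.891 CPM under E2 + P4 (log2 fold change -1.38, SE 0.34, adjusted p = 0.0418), and its groups did not overlap either. This call was lost in 16 of 24 alternatives, with a log2 fold change of -0.23 (adjusted p = 0.568) when the gates were set by 2 markers each and of -0.78 (0.0631) with no gate margin. Higher were Col3a1 (4264, 2574 and 3214 CPM without hormone, 10424, 7027 and 4997 CPM under E2, 5999, 6303 and 5462 CPM under E2 + P4, log2 fold change 0.97, SE 0.16, adjusted p = 0.0127) and Col5a2 (377, 312 and 312, 1001, 752 and 418 and 589.8, 579 and 482 CPM, log2 fold change 0.86, SE 0.16, adjusted p = 0.018). In both chains VCD_E2 stood highest and VCD_High_PBDE_E2 lowest of the 6 hormone libraries.

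Col1a2 (3625, 2636 and 3291 CPM without hormone, 5375, 4229.7 and 3999.6 CPM under E2, 4598, 4785 and 4339 CPM under E2 + P4, log2 fold change 0.50, SE 0.10, adjusted p = 0.0187) did not overlap between the states. Col6a3 did overlap (476, 258 and 292, 628, 593 and 455 and 457, 513 and 459 CPM, log2 fold change 0.61, SE 0.15, adjusted p = 0.0382). Col15a1 was called (log2 fold change 1.64, SE 0.41, adjusted p = 0.0418), and so was Col9a3 at a level within that of immune cells (log2 fold change 1.37, SE 0.34, adjusted p = 0.0427). Col1a1 did not pass (log2 fold change 0.39, SE 0.11, adjusted p = 0.057), nor did the remaining chains tested. These calls turned on single libraries. The 6 chains that rose became 0 without VCD_Low_PBDE, 1 without VCD_Low_E2 or VCD_High_PBDE_E2_P4, 2 without VCD_Low_E2_P4, 3 without VCD_E2 and 10 without VCD_High_PBDE_E2, and the 2 that fell became 0 without VCD_Low_PBDE and 1 without any other library but VCD_E2 and VCD_High_PBDE_E2. Over 24 alternatives the log2 fold changes ranged from 0.82 to 1.11 for Col3a1, 0.74 to 1.03 for Col5a2 and 0.41 to 0.58 for Col1a2. With the library code as a term 0 chains were called, and Col14a1 had a log2 fold change of -0.58 without VCD_Low_PBDE (adjusted p = 0.063) and of -0.58 with the code (adjusted p = 0.0644). On the control and high-dose diets, each within 1 code, its log2 ratios were -0.56 and -0.57. VCD_Low_PBDE had the lowest value of the 3 libraries without hormone for Col3a1, Col1a2 and Col6a3 and the highest for Col14a1.

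In the Fabp4+ gate 1 of the 7 chains that rose, Col5a2, was fibrillar. Col12a1 was at 10.9, 11.8 and 11.4 CPM without hormone, at 20.2, 17.7 and 29.2 CPM under E2 and at 39.1, 33.4 and 52 CPM under E2 + P4 (log2 fold change 1.33, SE 0.13, adjusted p = 0.000647). Col18a1 was at 208, 158 and 189 CPM without hormone, at 286, 290.1 and 513 CPM under E2 and at 416, 477 and 626 CPM under E2 + P4 (log2 fold change 1.13, SE 0.15, adjusted p = 0.00215). For both, all 6 hormone libraries exceeded the 3 without hormone. The transmembrane chains Col23a1 (4.87, 2.59 and 3.55, 8.14, 6.08 and 9.45 and 12.1, 6.94 and 11.6 CPM for vehicle, E2 and E2 + P4, log2 fold change 1.24, SE 0.16, adjusted p = 0.00189) and Col13a1 (0.573, 0.345 and 0.38, 1.83, 1.9 and 6.66 and 8.32, 7.43 and 7.31 CPM, log2 fold change 3.45, SE 0.47, adjusted p = 0.00254) did so too. Col13a1 had 6, 4 and 3 UMIs without hormone and passed the filter through the libraries where it is high, so it had to differ. In those 3 libraries without hormone its level lay within the range of the immune cells (0 to 4.24 CPM with a median of 0.209). So did its levels under E2 on the control and low-dose diets (1.83 and 1.9 CPM).

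Col16a1 (log2 fold change 1.02, SE 0.20, adjusted p = 0.0134), Col5a2 (log2 fold change 0.47, SE 0.12, adjusted p = 0.0392) and Col28a1 completed the 7 chains called higher in Fabp4+ cells. Col28a1 had 2, 2 and 2 UMIs without hormone and passed the filter through libraries with hormone, so its call carries no weight. Col4a4 was at 28.5, 19.9 and 27.8 CPM without hormone, at 21.2, 19.8 and 14.1 CPM under E2 and at 14.6, 17 and 6.5 CPM under E2 + P4 (log2 fold change -0.75, SE 0.20, adjusted p = 0.0415) and overlapped between states, with VCD_High_PBDE_E2_P4 lowest. Its log2 fold change was -0.46 (adjusted p = 0.148) without VCD_High_PBDE and -0.52 (0.287) for E2 alone. Col4a3 had a like difference that did not pass (log2 fold change -0.59, SE 0.19, adjusted p = 0.0672). None of the 4 type VI chains tested passed (log2 fold changes -0.60 to -0.053), and neither did Col1a1 (log2 fold change 0.38, SE 0.18, adjusted p = 0.189), Col1a2 (log2 fold change 0.45, SE 0.14, adjusted p = 0.066) or Col3a1 (log2 fold change 0.36, SE 0.16, adjusted p = 0.174). Beside these values, the summed adipocyte markers in the Fabp4+ gate were at 5.16 to 11.8 CPM without hormone and 13.7 to 93.2 CPM with E2 or E2 + P4, almost all of it from Car3 (5.06 to 92.6 CPM over the 12 libraries), while Adipoq and Cidec had a median of 0 CPM and Plin1 and Retn did not exceed 1.11 CPM. Of the 6 markers that set the gate, Fabp4 and Cd36 were higher under E2 (log2 fold changes 1.31 and 1.84), Smoc2 and Cxcl14 lower (-1.13 and -0.53), and Lpl (0.31) and Pparg (-0.023) did not pass. Their part was not tested. The 7 chains that rose became 4 without VCD_Low_PBDE, for E2 alone or with the library code as a term, 13 for E2 + P4 alone and 15 with gates set by 2 markers each, and the call of Col4a4 was lost without any library but VCD_Low_PBDE and VCD_Low_E2_P4, with 2 chains lower without VCD_Low_E2_P4.

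In the Gdf10+ gate 1 chain passed. Col16a1 was at 58.5, 57.7 and 51.3 CPM without hormone, at 85, 100.2 and 75.1 CPM under E2 and at 91, 105 and 87.8 CPM under E2 + P4 (log2 fold change 0.75, SE 0.093, adjusted p = 0.00329), without overlap. The type I and III chains Col1a1, Col1a2 and Col3a1 had log2 fold changes of 0.46, 0.47 and 0.57 that did not pass (adjusted p = 0.0828, 0.0601 and 0.0668), and 13 of the 24 chains had an unadjusted p under 0.05, as did 2122 of 11139 genes. DESeq2 called 4 chains higher in this gate, and edgeR 4 without VCD_High_PBDE_E2 and 2 without VCD_Vehicle or VCD_E2_P4. Col16a1 was thus the chain called in the Tnc+, Fabp4+ and Gdf10+ gates, with log2 fold change 0.16, SE 0.077, adjusted p = 0.197 in the Dpp4+ gate.

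The E2 change itself was compared between gates in a fit of all 36 gate and library sums with the library as a block, in which Col4a6 also passed the filter. In the Tnc+ gate it differed from the mean of the other 3 gates for 20 of the 32 chains in this joint fit (27.1% of all genes tested), 16 with a larger and 4 with a smaller value. The fibrillar chains Col1a1 (difference in log2 fold change 1.60, SE 0.19, adjusted p = 8.72e-07) and Col3a1 (difference 1.43, SE 0.21, adjusted p = 1.4e-05) and the anchoring chain Col7a1 (difference 3.35, SE 0.39, adjusted p = 7.93e-07) had larger increases in Tnc+ cells, while Col4a3 (-1.79), Col4a4 (-1.55) and Col4a5 (-0.74) had lower values there than elsewhere. The remaining lower chain, Col9a3, reached the filter on low counts in no Tnc+ or Dpp4+ library of this fit and was not separated from background, so its calls in both gates carry no weight. In the Dpp4+ gate 10 chains differed (17.3% of all genes), in the Fabp4+ gate 6 (3.22%), all lower, and in the Gdf10+ gate 3 (4.11%), all lower. Of these 3, Col7a1 reached the filter in 2 Gdf10+ libraries of this fit and was not tested for E2 within that gate alone. Its call there carries little weight. The 6 lower in Fabp4+ cells included the 3 chains of the common type VI monomer, Col6a1 (-0.57), Col6a2 (-0.74) and Col6a3 (-0.74). Col14a1 differed in opposite directions, lower in Dpp4+ (difference -0.69, SE 0.13, adjusted p = 0.000517) and higher in Tnc+ cells (difference 0.78, SE 0.13, adjusted p = 8.35e-05). The 10 differences in Dpp4+ cells became 6 without VCD_High_PBDE, the 6 in Fabp4+ cells 3 without VCD_Low_PBDE or VCD_High_PBDE and 11 without VCD_High_PBDE_E2, and the 3 in Gdf10+ cells 0 without VCD_Low_PBDE, 1 without VCD_Vehicle or VCD_High_PBDE, 5 without VCD_Low_E2 and 6 without VCD_High_PBDE_E2.

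**Figure D5:**
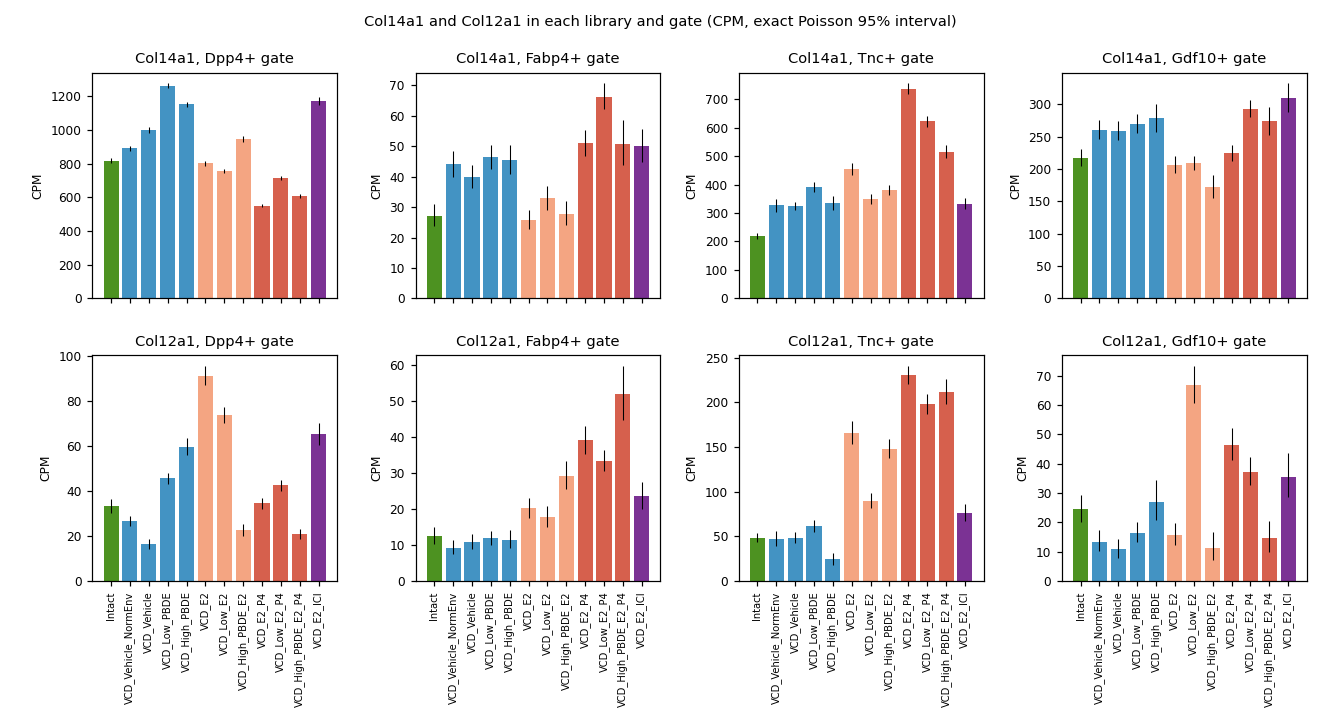
CPM (y axis, linear, from 0, with exact Poisson 95% intervals that cover counting error only) of Col14a1 (top) and Col12a1 (bottom) in each library of the 4 gates, colored as in the plot of Tnc+ libraries. In the Dpp4+ gate Col14a1 bars with E2 are below the blue bars of VCD_Vehicle, VCD_Low_PBDE and VCD_High_PBDE, whereas in the Tnc+ gate the dark red E2 + P4 bars are the tallest.

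With P4 added to E2, 6 chains in the Tnc+ gate were higher than under E2 alone, all of them among those called higher above. For Col14a1 the libraries without hormone and under E2 alone overlapped. Its call above thus rested in part on the same E2 + P4 libraries. Of 28 chains, 6 were higher under E2 + P4 than under E2 and 0 lower, where 1.89% of all genes tested were called in either direction: Col1a1 (log2 fold change 0.86, SE 0.13, adjusted p = 0.0132), Col3a1 (log2 fold change 0.75, SE 0.12, adjusted p = 0.0166), Col7a1 (log2 fold change 1.55, SE 0.29, adjusted p = 0.0295), Col1a2 (log2 fold change 0.61, SE 0.11, adjusted p = 0.0297), Col5a1 (log2 fold change 0.54, SE 0.10, adjusted p = 0.0316) and Col14a1 (log2 fold change 0.66, SE 0.14, adjusted p = 0.0493). The E2 and E2 + P4 libraries listed above did not overlap for any of the 6. The chains were called from these same libraries, so this is no further support. The share of all genes without such overlap was not counted. Col4a3, which fell under E2, was lower again in each E2 + P4 library than in each E2 library, without passing the test (log2 fold change -1.37, SE 0.36, adjusted p = 0.0875). These comparisons had 3 libraries on each side, and the 6 calls became 0 when VCD_E2, VCD_E2_P4, VCD_Low_E2 or VCD_Low_E2_P4 was left out or when the gates were set by 2 markers each, and 12 without VCD_High_PBDE_E2.

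In the Fabp4+ gate P4 raised the fiber-surface chains Col14a1 (E2 25.7, 32.8 and 27.8 CPM, E2 + P4 50.9, 66.2 and 50.6 CPM, log2 fold change 0.95, SE 0.094, adjusted p = 0.008) and Col12a1 (log2 fold change 0.88, SE 0.14, adjusted p = 0.0285), where 0.693% of all genes were called. Without hormone Col14a1 was at 39.9, 46.3 and 45.5 CPM in this gate, below each of its E2 + P4 libraries. For P4, 14 of the 26 chains tested here had an unadjusted p under 0.05, as had 2118 of 11979 genes. All chains summed took 2.94% to 3.79% of UMIs in Fabp4+ cells of the 3 tested libraries without hormone. They took 2.79% to 4.44% under E2 and 4.94% to 5.32% under E2 + P4. VCD_Vehicle_NormEnv, without hormone but outside the tests, was at 4.35%, within the range under E2. The 2 calls became 0 without VCD_E2 or VCD_E2_P4 and with gates set by 2 markers each, 1 without VCD_Low_E2 or VCD_High_PBDE_E2_P4, 5 without VCD_High_PBDE and 7 without VCD_High_PBDE_E2. In the Dpp4+ gate 0 chains passed for P4 in edgeR and 0 in DESeq2 (3 with an unadjusted p under 0.05, as had 1263 of 12765 genes), and in the Gdf10+ gate 0 passed in edgeR (7 with an unadjusted p under 0.05, as had 999 of 11139 genes, and 1 called without VCD_Low_PBDE) and 2 in DESeq2.

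The PBDE diets moved no chain past the test in edgeR. For the low dose, 0 chains were called in each gate, with 0, 4, 0 and 1 at an unadjusted p under 0.05 in the Dpp4+, Fabp4+, Tnc+ and Gdf10+ gates (584, 351, 253 and 367 over all genes), and 0 by DESeq2. For the high dose edgeR called 0 chains in each gate, with 8, 4, 2 and 1 at an unadjusted p under 0.05 (2468, 1939, 1507 and 1651 over all genes), and DESeq2 called 4 in the Dpp4+ and 1 in the Gdf10+ gate, and edgeR 1 in the Gdf10+ gate without VCD_Low_PBDE. Over all 12765, 11979, 11535 and 11139 genes tested, edgeR called 0%, 0.00835%, 0% and 0% for the low dose and 0.047%, 0.342%, 0.0694% and 0.189% for the high dose. In the Tnc+ gate Col1a1 had log2 differences of -0.11 (SE 0.13) for the low and 0.059 (SE 0.13) for the high dose.

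E2 + ICI and Intact are 1 library each, so their values are a description with no test, and the intervals given are exact Poisson 95% intervals for counting error. In the Tnc+ gate 18 of the 19 chains that rose under E2 had a lower value in VCD_E2_ICI than in each of the 6 libraries with E2 or E2 + P4, as did 81.8% of all genes that rose, and Col11a1 was the exception. For 12 of the 19, VCD_E2_ICI was still above each of the 3 tested libraries without hormone, as it was for 46.6% of all genes that rose. Col3a1 was at 6906 CPM in VCD_E2_ICI and 6563 CPM in Intact, Col1a1 at 4281 CPM in VCD_E2_ICI and 3932 CPM in Intact and Col15a1 at 388 CPM in VCD_E2_ICI and 514 CPM in Intact. Col1a1 in VCD_E2_ICI had an interval of 4211 to 4351 CPM, which says nothing of the spread between libraries. VCD_Vehicle_NormEnv was at 5060.5 CPM.

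Of the pair that fell, Col4a3 was at 7.07 CPM in VCD_E2_ICI and 5.6 CPM in Intact, both between the ranges without hormone and with E2, and Col4a4 at 18.9 CPM in VCD_E2_ICI and 10.8 CPM in Intact, the latter within its range with E2, with VCD_Vehicle_NormEnv at 13.8 and 29.9 CPM. In the Dpp4+ gate Col14a1 was at 1170.4 CPM in VCD_E2_ICI and 817 CPM in Intact, the former within its range without hormone and the latter within its range under E2. Intact Tnc+ cells held most Col13a1 among libraries without given hormone, at 81.9 CPM against 21.9, 25.3 and 17.4 CPM, and more Col18a1, at 239 CPM against 119, 84.4 and 109 CPM. In Fabp4+ cells, Col12a1 was the 1 of 7 chains that rose under E2 for which VCD_E2_ICI (23.5 CPM) was not below all 6 libraries with E2 or E2 + P4.

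Genes that process collagen changed in the Tnc+ gate as well. Of 39 genes on a list of the steps from hydroxylation to degradation, 36 were tested there, 25 were higher and 3 lower (median log2 fold change 0.53), where 17% and 15.2% of all genes were, against 8 and 1 of 37 in the Dpp4+ (5.95% and 5.39% of all genes), 6 and 2 of 37 in the Fabp4+ (6.83% and 5.28%) and 2 and 0 of 35 in the Gdf10+ gate (2.01% and 1.02%). Of the 15 tested genes of hydroxylation and folding, which modify and chaperone chains in the endoplasmic reticulum, 13 rose and 0 fell. By step, 4 of 6 genes of secretion rose, 3 of 6 of propeptide cleavage rose and 2 fell, 2 of 5 of cross-linking rose and 1 fell, and 3 of 4 of uptake and degradation rose. The cross-linking oxidase Loxl1 was at 330.0, 244 and 371 CPM without hormone, 774, 744 and 870.4 CPM under E2 and 1053, 1024 and 1170.0 CPM under E2 + P4 (log2 fold change 1.52, SE 0.10, adjusted p = 1.05e-05). The lysyl hydroxylase Plod2 was at 46.8, 49.7 and 56.2 CPM without hormone, 106, 107 and 135 CPM under E2 and 184, 157 and 196 CPM under E2 + P4 (log2 fold change 1.44, SE 0.10, adjusted p = 1.28e-05). Among the genes that fell were both enhancers of propeptide cleavage: Pcolce2 was at 432, 523 and 627 CPM without hormone, 220.4, 240.4 and 225 CPM under E2 and 98.2, 158 and 134 CPM under E2 + P4 (log2 fold change -1.67, SE 0.12, adjusted p = 1.15e-05), and Pcolce was at 727, 738 and 764 CPM without hormone, 735, 585 and 367 CPM under E2 and 383, 469 and 356 CPM under E2 + P4 (log2 fold change -0.73, adjusted p = 0.00615), with VCD_E2 within its range without hormone. Pcolce was higher under E2 in the Dpp4+ gate (0.76, adjusted p = 0.022). Loxl4, another oxidase, fell too, at a low level: it was at 4.65, 7.05 and 7.41 CPM without hormone and 3.93, 3.28, 1.29, 1.72, 2.29 and 0.981 CPM with E2 or E2 + P4 (log2 fold change -1.55, adjusted p = 0.00667).

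The genes whose profile over the 12 Tnc+ libraries was most like that of Col3a1, the chain with the smallest p for E2, were named by Pearson's correlation of log2(CPM + 1) among 11534 genes. They were Col5a1 (r = 0.996), Col1a2 (0.992), Col1a1 (0.991), C1qtnf6 (0.986) and Sparc (0.985), the last a collagen-binding matrix protein. The values describe these libraries, which share their hormone states and depths, and carry no p.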

How the data were processed

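Single-cell RNA-seq of the mammary gland was processed by the authors with Cell Ranger 3.1.0 against mm10, and the deposited values are raw UMI counts per gene and barcode with no normalization. Barcodes were dropped below 500 genes or 1000 UMIs or above 5% of UMIs from mitochondria, fibroblasts were selected and gated by markers with a margin of 0.3 in z-scored marker scores, and no doublet caller was run. Counts were summed per library and gate and tested with edgeR 4.0.16 (quasi-likelihood, TMM, filterByExpr) in R 4.3.3, with diet and hormone as terms, and p-values adjusted by Benjamini-Hochberg over all genes at 0.05. SE was the absolute log2 fold change over the square root of F. DESeq2 1.42.0, other filters, gates and terms, and leaving out each library were tried, and the removal of shared barcodes was added after seeing the data. The fits were run on data simulated with a fixed dispersion and no diet or library code effect. This checked the code and not the spread between these libraries. Cells are not replicates, so the 3 libraries outside the design with diet and hormone entered the comparison of gates and no main test of a condition. An alternative added VCD_Vehicle_NormEnv to the hormone fits, with its diet taken as the control diet. Intervals cover counting error only.

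Chains named with values were 12 common chains in the gate of their largest E2 change, up to 4 chains per gate and direction with the smallest p for E2, and the chain of each class with the smallest p between gates. Other chains given with values were chosen after their values were seen. The members, gates and gene lists were chosen with earlier results of these data known.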

Additional observations from a re-analysis of the deposited data

Results flagged for a closer look

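These chains differed between gates in their change under E2 by a test of the difference itself (edgeR, adjusted over all genes), and the value given is the difference in log2 fold change. In the Tnc+ gate the log2 fold change under E2 exceeded the mean of the other 3 gates for Col7a1 (3.35), Col8a1 (2.83), Col1a1 (1.60), Col3a1 (1.43), Col23a1 (1.36), Col5a2 (1.27), Col15a1 (1.21), Col1a2 (1.15), Col5a1 (1.04), Col18a1 (1.03), Col6a2 (1.00), Col5a3 (0.95), Col16a1 (0.87), Col6a1 (0.84), Col14a1 (0.78) and Col6a3 (0.66). There it was below that mean for Col4a5 (-0.74), Col4a4 (-1.55), Col4a3 (-1.79) and Col9a3 (-1.85). In the Dpp4+ gate the log2 fold change under E2 exceeded the mean of the other 3 gates for Col9a3 (1.59), Col4a4 (1.11), Col15a1 (0.83), Col4a5 (0.75) and Col6a6 (0.54). There it was below that mean for Col1a1 (-0.55), Col5a1 (-0.56), Col14a1 (-0.69), Col16a1 (-0.94) and Col23a1 (-1.54). In the Fabp4+ gate it was below that mean for Col6a1 (-0.57), Col5a3 (-0.67), Col6a3 (-0.74), Col6a2 (-0.74), Col3a1 (-0.85) and Col15a1 (-0.97). In the Gdf10+ gate it was below that mean for Col18a1 (-0.80), Col15a1 (-1.07) and Col7a1 (-2.15). Col7a1 reached the filter on low counts in 2 Gdf10+ and 0 Dpp4+ libraries of this fit. It was not tested for E2 within the Gdf10+ gate alone, so its value there carries little weight. Each contrast shares its libraries with the other 3, and a larger value in one gate enters the mean that the others are set against. Col8a1 did not pass for E2 within the Tnc+ gate (adjusted p = 0.0842), and its log2 ratios there were 4.32, 1.18 and -0.44 on the control, low-dose and high-dose diets, so its direction was not the same on all. Col9a3 reached the filter on low counts in no Tnc+ or Dpp4+ library of this fit and was not separated from background, so its values carry no weight.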

How the results depend on the processing

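Counts of called chains are given as the count under the alternative with the reported count in brackets. With the library code as a term there were 0 chains higher under E2 in the Dpp4+ gate (6), 0 chains lower under E2 in the Dpp4+ gate (2), 4 chains higher under E2 in the Fabp4+ gate (7) and 1 chain called for P4 in the Gdf10+ gate (0). With E2 alone against no hormone there were 2 chains higher under E2 in the Dpp4+ gate (6), 1 chain lower under E2 in the Dpp4+ gate (2) and 4 chains higher under E2 in the Fabp4+ gate (7). With a mitochondrial limit of 10% there was 1 chain lower under E2 in the Dpp4+ gate (2). With a gate margin of 0 there was 1 chain lower under E2 in the Dpp4+ gate (2), 2 chains lower under E2 in the Fabp4+ gate (1) and 5 chains higher under E2 in the Gdf10+ gate (1). With a gate margin of 0.6 there was 1 chain lower under E2 in the Dpp4+ gate (2), 3 chains lower under E2 in the Fabp4+ gate (1), 0 chains called for P4 in the Fabp4+ gate (2), 10 chains whose E2 change differed in the Fabp4+ gate (6), 6 chains whose E2 change differed in the Gdf10+ gate (3) and 1 chain lower in the Tnc+ gate than in the others (2). With gates from 2 markers each there was 1 chain lower under E2 in the Dpp4+ gate (2), 15 chains higher under E2 in the Fabp4+ gate (7), 2 chains lower under E2 in the Fabp4+ gate (1), 0 chains called for P4 in the Fabp4+ gate (2), 0 chains called for P4 in the Tnc+ gate (6), 13 chains whose E2 change differed in the Tnc+ gate (20), 7 chains whose E2 change differed in the Gdf10+ gate (3) and 4 chains higher in the Gdf10+ gate than in the others (7). With E2 + P4 alone against no hormone there was 1 chain lower under E2 in the Dpp4+ gate (2), 13 chains higher under E2 in the Fabp4+ gate (7), 2 chains lower under E2 in the Fabp4+ gate (1) and 4 chains higher under E2 in the Gdf10+ gate (1). Without the 5% of cells with most UMIs there were 2 chains lower under E2 in the Fabp4+ gate (1), 1 chain called for P4 in the Fabp4+ gate (2) and 5 chains whose E2 change differed in the Gdf10+ gate (3). With library totals in place of TMM there were 0 chains lower under E2 in the Fabp4+ gate (1), 6 chains whose E2 change differed in the Gdf10+ gate (3) and 1 chain lower in the Tnc+ gate than in the others (2). With no filter on low counts there were 3 chains lower under E2 in the Fabp4+ gate (1), 4 chains lower under E2 in the Tnc+ gate (2), 10 chains higher under E2 in the Gdf10+ gate (1), 8 chains called for P4 in the Fabp4+ gate (2), 16 chains called for P4 in the Tnc+ gate (6), 6 chains called for P4 in the Gdf10+ gate (0), 7 chains whose E2 change differed in the Gdf10+ gate (3), 1 chain called for the low PBDE dose in the Gdf10+ gate (0), 1 chain called for the high PBDE dose in the Tnc+ gate (0) and 1 chain called for the high PBDE dose in the Gdf10+ gate (0). With no PBDE term there were 0 chains lower under E2 in the Fabp4+ gate (1), 1 chain called for P4 in the Fabp4+ gate (2) and 3 chains called for P4 in the Tnc+ gate (6). With VCD_Vehicle_NormEnv added there were 3 chains lower under E2 in the Fabp4+ gate (1), 10 chains whose E2 change differed in the Fabp4+ gate (6) and 8 chains whose E2 change differed in the Gdf10+ gate (3). With DESeq2 there were 4 chains higher under E2 in the Gdf10+ gate (1), 7 chains called for P4 in the Fabp4+ gate (2), 2 chains called for P4 in the Gdf10+ gate (0), 5 chains whose E2 change differed in the Gdf10+ gate (3), 4 chains called for the high PBDE dose in the Dpp4+ gate (0) and 1 chain called for the high PBDE dose in the Gdf10+ gate (0). Leaving out each library in turn gave 0 to 10 chains higher under E2 in the Dpp4+ gate (6), 0 to 2 chains lower under E2 in the Dpp4+ gate (2), 4 to 8 chains higher under E2 in the Fabp4+ gate (7), 0 to 2 chains lower under E2 in the Fabp4+ gate (1), 2 to 4 chains lower under E2 in the Tnc+ gate (2), 1 to 4 chains higher under E2 in the Gdf10+ gate (1), 0 to 7 chains called for P4 in the Fabp4+ gate (2), 0 to 12 chains called for P4 in the Tnc+ gate (6), 0 to 1 chains called for P4 in the Gdf10+ gate (0), 6 to 11 chains whose E2 change differed in the Dpp4+ gate (10), 3 to 11 chains whose E2 change differed in the Fabp4+ gate (6), 0 to 6 chains whose E2 change differed in the Gdf10+ gate (3), 1 to 2 chains lower in the Tnc+ gate than in the others (2) and 0 to 1 chains called for the high PBDE dose in the Gdf10+ gate (0).

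The other 594 counts stayed within 1.5 times the reported one, and no log2 fold change of a named chain reversed. Of those values, 1 in the Tnc+ gate lost its call, Col18a1 with gates from 2 markers each (1.22, adjusted p = 0.0589), as did 42 in the Dpp4+ and 10 in the Fabp4+ gate, where 102 and 110 kept theirs. In the settings without a library, an arm of the design with 2 libraries is assumed to vary like the others. Depth limits the low chains: those under about 1 CPM rest on few UMIs per library. The labels give no replicate numbers to pair samples by. Diet was a term in every hormone test and the library a block in every comparison of gates, and leaving out the diet term is one of the alternatives above.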
